A study of Sus scrofa with 63 samples.

Results

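Gene expression in the fetal jejunum was compared between the purebred Meishan (MS) and Large White (LW) pigs of day 110 of gestation. The groups were chosen by the breed and day in the sample labels. They hold 7 MS and 9 LW fetuses, together 16 of the 63 fetuses measured. Both parents of an MS fetus were Meishan and both parents of an LW fetus were Large White. Meishan is a Chinese breed and Large White a European one. The other fetuses were 6 MS and 9 LW of day 90, and crossbreds of both directions at both ages. LWMS fetuses had a Large White sire and a Meishan sow, and at day 110 there were 9 of them. MSLW fetuses had a Meishan sire and a Large White sow, and at day 110 there were 6. All 63 fetuses were male. Each array measured total RNA from the middle of the jejunum of 1 fetus without pooling. The sow of each fetus is not given in the labels, so littermates could not be recognised and p-values measure the spread between fetuses, some of which may share a litter.

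The jejunum is the main site of digestion and absorption after birth. During late gestation its villi are covered by enterocytes that build a brush border of digestive enzymes and transporters, while crypts supply new cells and immune cells settle in the wall. The fetus lives on glucose and fructose delivered by the placenta and must be ready for milk fat, lactose and colostral antibodies within hours of birth. In whole tissue, fewer cells of a type and less RNA per cell cannot be told apart.

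Values are log2 spot intensities minus the 75th percentile of the same array, so a value of 0 is a bright probe and negative values are common. A difference is the MS mean minus the LW mean on this log2 scale, given with its standard error (SE) from a limma fit over all 63 arrays. A probe was called when its Benjamini-Hochberg adjusted p was at most 0.01 and the difference was at least 0.5 in size. Of 60305 probes, 40515 were bright enough to be tested. Where a gene had several probes, its brightest tested probe stands for it unless another probe is named. Probes of a gene can overlap or be identical in sequence, so their number is not a number of independent measurements. Probes that share a run of 20 bases or more are taken as 1 target.

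Defining markers of jejunal tissue were present in all 16 fetuses. The mean of 18 enterocyte markers lay between 2.25 and 5.0 in LW (median 4.59), and between 1.02 and 5.21 in MS (median 4.87). The lowest value belonged to MS fetus 632, and the other MS fetuses began at 3.71. This fetus also had the highest mean of the mesothelium markers, at 3.42, and correlated least with its own group (mean r 0.904, against at least 0.946 for the others). None of the 18 enterocyte markers was called between the breeds. The first principal component of the 16 arrays held 37.2% of the variance and ran through both breeds. The second held 16.4% and separated all MS from all LW fetuses. No array was saturated at any probe, and 51.2 to 71.5% of probes per array were well above background. Values without MS fetus 632 are given beside several of the genes and lists. An alternative fit that weights each array by its agreement with its group gave this fetus a weight of 0.152, and called 871 genes higher and 593 lower by brightest probe, in place of 188 and 229.

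**Figure D1:**
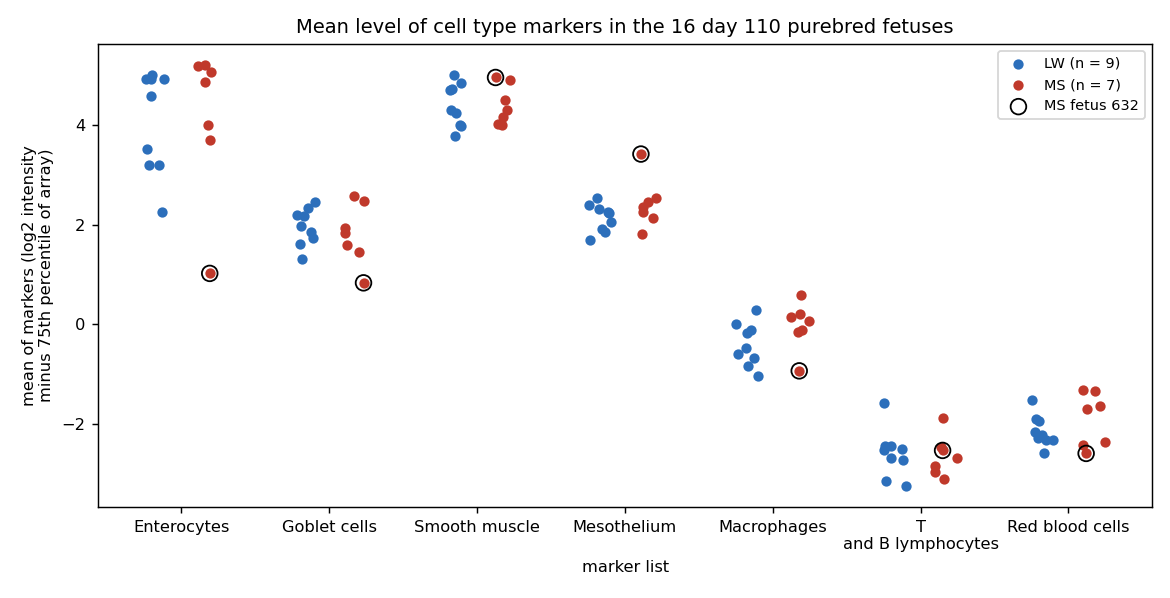
Mean level of the markers of 7 cell types in each of the 16 purebred fetuses of day 110, as log2 intensity minus the 75th percentile of the array, with LW in blue and MS in red. The circled MS fetus 632 lies at 1.02 for enterocytes, while the other fetuses of both breeds lie between 2.25 and 5.21.

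Between the breeds, 2024 of 40515 probes were called, which is 5.0% of those tested. MS was higher at 747 probes (1.84%) and lower at 1277 (3.15%). The median size of a called difference was 1.09. Differences of at least 2, which is a 4-fold ratio, were found at 85 probes higher and 194 probes lower in MS, and differences of at least 4 at 11 and 28 probes. At 670 probes (1.65%) every MS fetus lay above or below every LW fetus, and 572 of these were among the called probes. Of the called probes, 1246 carried a gene symbol, covering 955 genes, and 778 did not. Of the 1246, 420 were named only through the study's tables, which list probes that the study selected on these same fetuses. By brightest probe, 188 of 10204 genes were higher (1.84%) and 229 lower (2.24%) in MS. These counts depend on the fetuses used to estimate the spread: with the 16 purebred fetuses alone 965 probes were called. Of the 50 named genes described below that were called at the brightest probe, 22 were also called with the 16 fetuses alone. These were AADAT, ADTRP, APOD, BCL2L15, C1ORF186, C1ORF63, CCL2, CD163, CD38, CYP2C42, MAPK3, MASP1, METTL7B, MMRN2, MTFP1, NPM2, PAFAH2, PGM1, RARB, SALL3, SLA-DOA and TRUB1. The split depends on the scaling, since 36.9% of calls were higher in MS here and 52.5% after centring each array on its median, which moved the median of all probes from 0.024 to 0.147.

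The probes without a gene name included the largest differences in both directions. They are known only by their sequence, so 30 bases from the middle of each 60-base probe are shown, for the pair most lower and the pair most higher in MS.
First lower probe: cacgtcctgatatccaagctactttgaaat
Second lower probe: attgcttcatgggtatgttttcccaggagg
First higher probe: gtgcccttaaaccaatcagactgccaaaat
Second higher probe: taccactgcattatgcatggtccaaccaac
The first lower probe lay between -8.23 and -5.54 in MS (median -6.60) and between 0.64 and 1.34 in LW (median 0.84). It was well above background in 9 of 9 LW fetuses and in 0 of 7 MS fetuses, so its ratio is a bound, at least 71.6-fold higher in LW (adjusted p = 7.32e-33). Such a bound sets the mean of the bright group against the detection floor of the dim one. Both crossbred groups were close to LW, with means of -0.42 in LWMS and -0.10 in MSLW. The first higher probe ranged from -0.54 to 1.31 in MS and from -8.26 to -4.97 in LW, where no fetus was well above background, and was at least 36.1-fold higher in MS. The second lower probe (-5.91, SE 0.74) and the second higher probe (6.74, SE 1.04) were detected in some fetuses of the dim breed. At day 90 these 4 probes kept their signs.

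G6PC, the glucose-6-phosphatase that releases free glucose at the end of gluconeogenesis, lay between -1.82 and 2.15 in MS (median 1.21) and between -5.10 and 0.28 in LW (median -1.90). MS fetus 632 was the lowest of its group, and the ranges also overlapped without it, since LW fetus 852 lay above MS fetuses 627 and 623. The difference was 3.04 (SE 0.50, 8.24-fold, adjusted p = 9.84e-06), and 2 of the 3 G6PC probes were called, the other standing at 2.19. With the 16 fetuses alone the G6PC call was lost (SE 0.80, adjusted p = 0.0325). At day 90 the G6PC difference was 1.0 and was not called. PGM1, the phosphoglucomutase that links glycogen to glycolysis, ranged from 1.73 to 3.63 in MS and from -1.42 to 2.0 in LW, a difference of 2.53 (SE 0.46, adjusted p = 6.47e-05). PGM1 was also called at day 90, at 2.29, and both crossbred means, 3.03 and 3.10, were at the MS level of day 110. The 2 called PGM1 probes share 55 bases, and the separate PGM1 probe differed by 0.45 and was not called. PCK1, the gatekeeper enzyme of gluconeogenesis, was higher in MS at all 6 of its probes, by 1.17 to 1.35, but none passed the threshold (adjusted p 0.0112 to 0.0385). The brightest PCK1 probe passed when MS fetus 632 was left out, at 1.48 (adjusted p = 0.0054). Of the 16 tested genes of glucose and fructose handling, G6PC alone was called, 12 differed in the direction of MS and the median was 0.41. Over all 10204 genes 1.84% were called higher, 5844 differed in that direction and the median was 0.05. Without MS fetus 632 the median of the glucose and fructose list was 0.70 and 2 were called, while 245 of the 10204 genes were called higher. With array weights 8 were called, in a fit that called 871 of the 10204 genes higher. All of these list calls were higher in MS. KHK, which phosphorylates fructose, differed by 0.52 (SE 0.25, adjusted p = 0.196).

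APOD, an apolipoprotein that binds small lipids, lay between -1.27 and 0.44 in MS and between -3.74 and -1.35 in LW, so that all MS fetuses were above all LW fetuses. Its difference was 2.17 (SE 0.28, 4.49-fold, adjusted p = 4.95e-08), and all 6 APOD probes were called, from 1.68 to 2.56. At day 90 APOD differed by 0.71 and was not called. Of the 6 probes, 5 at 3 targets were named apart from the study's tables. The brightest of these 5 differed by 2.03 at day 110. SCP2, a sterol carrier of peroxisomes, gave another picture. A single SCP2 probe was called (3.08, SE 0.58), whereas the other 3, including the brightest, differed by 0.58 to 0.75 and were not called. The brightest SCP2 probe passed as well when MS fetus 632 was left out, at 0.99 (adjusted p = 0.00873). ADTRP, a membrane hydrolase of lipids, did not overlap between the breeds, at -0.50 to 2.52 in MS and -4.25 to -0.99 in LW (3.29, SE 0.52). Among 21 tested genes of lipid uptake and apolipoproteins APOD was the single call, against 1.84% of all genes, and the median was 0.28. The median was 0.67 without MS fetus 632, and with array weights, where 871 of 10204 genes were called higher, 13 of this list were. Among 13 genes of cholesterol synthesis SQLE, which makes squalene epoxide, was the single call, and it was lower in MS (-0.81, SE 0.19), as were 2.24% of all genes. The other 3 SQLE probes differed by -0.71 to -0.37 and were not called. SQLE lost its call without LW 572, MS 407 or MS 409 (adjusted p up to 0.0216).

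PAFAH2, a phospholipase that degrades platelet-activating factor, was called in opposite directions at its 2 probes, both without overlap. The brighter probe was lower in MS, at 0.74 to 1.88 against 1.94 to 2.86 in LW (-0.93, SE 0.18). The dimmer probe was higher, at 1.55 to 2.37 against -1.92 to -0.78 (3.52, SE 0.37). After centring each array on its median the brighter probe was not called (-0.81, adjusted p = 0.0241). At day 90 both probes kept their signs, at -0.79 and 2.35. No direction can be given for the gene.

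The other genes with large differences above 0 have assorted roles. BCL2L15, a member of the BCL2 family of apoptosis regulators, ranged from 1.74 to 4.85 in MS and from -1.51 to 1.07 in LW, without overlap. Its difference of 3.84 (SE 0.40, 14.3-fold, adjusted p = 1.98e-10) was nearly matched at day 90, at 4.41. The LWMS mean of 3.68 lay near MS and the MSLW mean of 2.57 lay between the breeds. SALL3, a zinc finger transcription factor, did not overlap either, at 0.67 to 2.10 against -2.0 to -0.87 (2.58, SE 0.26), and was again similar at day 90 (2.66). AADAT, an aminotransferase of the kynurenine and lysine pathways, was well above background in 7 of 7 MS fetuses and in 0 of 9 LW fetuses. It was at least 21.7-fold higher in MS (adjusted p = 9.57e-10), and the crossbred means were -0.91 and -1.61, close to the MS median of -0.15 rather than to the LW median of -6.44. BTD, which recycles biotin, was called at 1 of 2 probes (2.46, SE 0.33), while its brighter probe differed by 0.32 (adjusted p = 0.0416). CEBPZ behaved alike, with 2.61 (SE 0.44) at 1 of 3 probes and 0.03 at the brightest. RARB, a retinoic acid receptor, did not overlap between the breeds and was 2.30-fold higher in MS (1.2, SE 0.18).

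MTFP1 had the lowest difference of the named genes. MTFP1, an inner membrane protein that promotes mitochondrial fission, lay between -4.98 and -3.88 in MS and between 0.43 and 1.75 in LW. The difference was -5.65 (SE 0.25, 50.1-fold, adjusted p = 2.31e-26), and -4.37 at day 90. Both crossbred means, 0.84 in LWMS and 0.24 in MSLW, were close to LW. The other MTFP1 probe differed by -6.00. The 2 MTFP1 probes were not both named apart from the study's tables, so their agreement is not independent support. MMRN2, a matrix protein of the endothelium, was called lower at all 5 probes, by -1.38 to -3.92 at the 4 where MS fetuses were detected. At its brightest probe MS lay between -4.02 and -2.73 and LW between -1.23 and -0.35 (-2.57, SE 0.25). At its dimmest no MS fetus was well above background, which gives a bound of at least 9.03-fold. TMOD3, which caps actin filaments, differed by -4.69 (SE 0.36) at one probe and by -0.59 (SE 0.14) at the brighter one. Without MS fetus 623 the latter no longer passed (adjusted p = 0.0101). CLASP1, a microtubule plus end protein, was lower at 1 of 2 probes (-3.06, SE 0.52), with a wide MS range of -8.09 to -1.81.

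CYP2C42, one of the cytochrome P450 enzymes that oxidise drugs and fatty acids, lay between -6.62 and -0.25 in MS (median -1.48) and between 2.14 and 3.57 in LW (median 2.72), without overlap. Its difference was -4.74 (SE 0.71, 26.8-fold, adjusted p = 2.05e-06), and -5.65 at day 90. The LWMS mean was 2.22 and the MSLW mean 1.30. CYP2C49 was called at all 4 probes, from -2.82 to -3.32, but with broad overlapping ranges of -1.55 to 4.59 in MS and 1.13 to 5.88 in LW. Without MS fetus 632 the brightest CYP2C49 probe fell short, at -2.41 (adjusted p = 0.0135), and without MS fetus 401 it did so too. CYP2C34, found after its values were seen, was called at both of its targets, at -5.05 and -2.75. These genes lie next to each other in the RefSeq order of the Sscrofa11.1 assembly, where HELLS, CYP2C34, CYP2C49 and CYP2C42 formed the longest run of neighbours called the same way. The CYP2C probes of similar sequence may share target RNA. Of 24 tested steroid and xenobiotic enzymes, CYP2C42 and CYP2C49 were the only calls, both lower, against 2.24% of all genes, and the median was 0.02. Without MS fetus 632 this list had 1 call higher and 1 lower, with a median of 0.21. That fit called 245 of all 10204 genes higher and 228 lower.

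Several further genes lower in MS have assorted roles. METTL7B, a methyltransferase of lipid droplets and the endoplasmic reticulum, ranged from -6.55 to -1.34 in MS and from -1.44 to 1.38 in LW (-3.38, SE 0.45). CD38, which consumes NAD at the cell surface, did not overlap, at -6.63 to -2.76 against -1.91 to -0.87 (-3.20, SE 0.36). ALPK1, a kinase that senses bacterial sugars, was lower without overlap at its brightest probe (-3.44, SE 0.58) and was at least 5.76-fold lower at another, where no MS fetus was well above background. With the 16 fetuses alone the brightest ALPK1 probe was not called (adjusted p = 0.015). The remaining ALPK1 probe was not called. NPM2, a histone chaperone, was lower without overlap (-3.33, SE 0.53), with LW fetus 670 standing apart from its group at -4.30. C1ORF186, a membrane protein, differed by -3.55 (SE 0.56). TRUB1, a pseudouridine synthase of transfer RNA, was above background in 9 of 9 LW and 0 of 7 MS fetuses, at least 3.06-fold lower in MS, although its ranges touched.

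**Figure D2:**
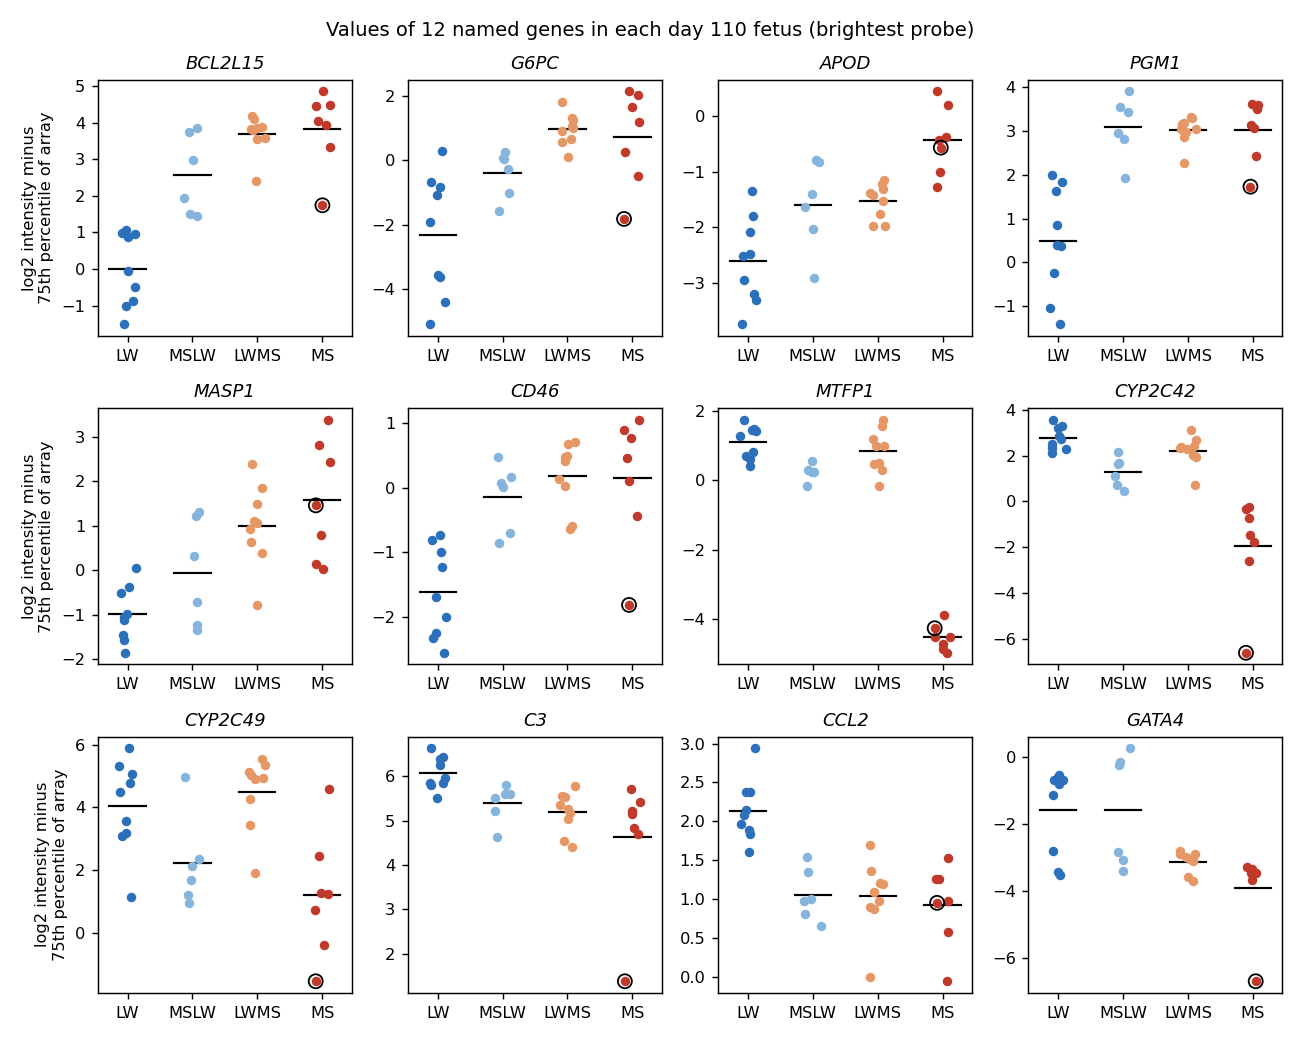
Log2 intensity minus the 75th percentile of the array for 12 named genes in each fetus of day 110, by genotype, with the group mean as a bar and MS fetus 632 circled. MTFP1 and CYP2C42 separate MS from the 3 other groups, BCL2L15 and APOD separate MS from LW, and MS fetus 632 is the lowest MS value for C3, GATA4 and both CYP2C genes.

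CCL2, the chemokine that draws monocytes, was lower in MS at all 4 probes, by -1.21 to -1.62. These probes hold only 2 different sequences. The brightest did not overlap, at -0.06 to 1.53 in MS and 1.60 to 2.94 in LW (-1.21, SE 0.24, adjusted p = 0.000342). For CCL2 the value of MS fetus 632, 0.95, lay inside the range of the other MS fetuses. At day 90 the CCL2 difference was 0.09, and the crossbred means, 1.03 and 1.05, were at the MS level. CD163, a scavenger receptor of macrophages, was higher in MS at 3 of 6 probes. The brightest ranged from -0.22 to 0.49 in MS and from -1.94 to -0.21 in LW (1.0, SE 0.24), and it no longer passed without LW fetus 670 or MS fetus 627, or with slide as a block (0.88, adjusted p = 0.016). Among 12 macrophage markers CD163 and MSR1 were called, both higher in MS, 11 differed in that direction and the median was 0.41. Over all genes 1.84% were called higher and 5844 of 10204 differed in that direction. With slide as a block 1 macrophage marker was called. The mean of these markers largely overlapped, at -0.94 to 0.59 in MS and -1.05 to 0.29 in LW. The part of macrophage content in the CCL2 and CD163 differences was not tested. LCK, a kinase of T lymphocytes chosen after its values were seen, was lower in MS without overlap (-1.40, SE 0.16), whereas the 11 lymphocyte markers tested had a median of 0.08.

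Complement, the cascade of plasma proteins that tags microbes, had 3 of 25 tested genes called, 2 higher and 1 lower, against 1.84% and 2.24% of all genes. C3, its central component, was lower in MS at all 7 probes, which cover 4 targets, by -1.42 to -1.60. The brightest ranged from 1.38 to 5.72 in MS and from 5.50 to 6.63 in LW (-1.44, SE 0.34, adjusted p = 0.00231). The value of 1.38 belonged to MS fetus 632, the next MS value was 4.71, and without that fetus the difference was -0.90 (adjusted p = 0.0144). At day 90 C3 differed by -0.01. CD46, a membrane protein that protects cells from complement, was higher in MS at both probes (1.76, SE 0.28 at the brightest, and 1.60 at day 90), but the call was lost with the 16 fetuses alone (adjusted p = 0.0132). MASP1, a protease that starts the lectin pathway, was higher at 3 of 4 probes (2.56, SE 0.37 at the brightest), with ranges of 0.04 to 3.38 in MS and -1.85 to 0.06 in LW. ITIH4, an acute phase plasma protein, was called at 4 of 5 probes (2.50, SE 0.59). MS fetus 632 stood at -0.29, the other MS fetuses between 4.99 and 7.95, and LW between 1.88 and 4.99. Without that fetus the ITIH4 difference was 3.50 (adjusted p = 2.03e-08). Without any one of MS fetuses 401, 407, 409 and 871 ITIH4 did not pass.

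Few genes of antigen presentation and of the interferon response were called at day 110. Of 25 tested genes of the major histocompatibility complex and antigen presentation, SLA-8 was higher (0.51, SE 0.11) and SLA-DOA lower (-1.36, SE 0.29), against 1.84% and 2.24% of all genes. The median was 0.03, or -0.03 after quantile normalisation and 0.24 without MS fetus 632. At day 90 the median of these genes was 0.48 and 4 were called, all higher in MS. Of 34 interferon-stimulated genes, none was called at day 110, 10 differed in the direction of MS and the median was -0.15. Without MS fetus 632 the median was -0.07 and 2 were called, both higher in MS, while 245 of all 10204 genes were called higher. At day 90 their median was 0.60 and 3 were called, all higher in MS, while over all 10204 genes 151 were higher and 138 lower and the median was 0.07. SLA genes are nearly identical in sequence, so their probes may share targets. LCN2, which withholds iron from bacteria, was well above background in 5 of 7 MS and 0 of 9 LW fetuses and at least 1.21-fold higher in MS. Without any one of 10 of the 16 fetuses the SLA-8 difference fell under the required size of 0.5, to 0.48 at the lowest. Its adjusted p then stayed at most 0.00284. After centring each array on its median SLA-8 was not called (0.63, adjusted p = 0.0136). LCN2 lost its call without any one of 9 (adjusted p up to 0.0379).

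Of 22 tested genes of ion and water transport, 2 were higher and 1 lower, against 1.84% and 2.24% of all genes. With array weights 7 were higher and 0 lower, in a fit that called 871 of all 10204 genes higher and 593 lower. Without MS fetus 632 the counts were 2 and 0, against 245 and 228 of all genes. AQP10, a channel for water and glycerol, was lower in MS at 2 of 3 probes, with a wide spread of -5.53 to 4.20 in MS and -0.45 to 5.39 in LW (-3.15, SE 0.78). The call was lost without any one of MS 623, MS 632, LW 469, LW 670, LW 852 and LW 854 (adjusted p up to 0.0343), and with slide as a block (adjusted p = 0.0135). CA4, a carbonic anhydrase of apical membranes, was higher in MS (2.01, SE 0.50), at -0.30 to 6.4 against -1.2 to 0.87. The value of 6.4 was that of MS fetus 632, the next was 1.40, and without it the CA4 difference was 1.2 (adjusted p = 0.0262). SLC26A3, a chloride and bicarbonate exchanger, was called at 1 of 2 probes and ranged from -3.22 to 1.79 in MS and from -6.67 to -0.72 in LW (2.82, SE 0.71), and fell short without MS fetus 632 (2.29, adjusted p = 0.0252) or any one of 5 others. SLC1A1, a glutamate transporter, was the single call among 11 genes of amino acid and peptide transport (1.05, SE 0.27), where the median was 0.70. In this list 3 genes were called without MS fetus 632 (median 0.94) and 9 with array weights (median 1.41), all higher in MS. Over all 10204 genes these fits called 245 and 871 higher. The SLC1A1 difference was 1.38 without MS fetus 632, and it lost its call without any one of 9 other fetuses (adjusted p up to 0.022).

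Calls for digestive genes of the brush border depended on the setting. With all fetuses weighted equally none of the 14 tested genes of brush border digestion and none of the 7 of microvillus structure was called, although 11 and all 7 differed in the direction of MS, with medians of 0.53 and 0.50. With array weights 6 and 5 were called, all higher in MS, with medians of 1.47 and 0.95, while 7 of the 18 enterocyte markers and 871 of all 10204 genes were called higher too. Leaving out MS fetus 632 gave a median for brush border digestion of 1.07 and 1 gene was called, higher in MS, while the median of the 18 enterocyte markers was 0.61 in place of 0.01 (-0.14 after quantile normalisation with all fetuses). GATA4, a transcription factor of the proximal small intestine, was the single call among 23 epithelial transcription factors (-2.34, SE 0.54), against 2.24% of all genes called lower. Without MS fetus 632 this list had 2 calls, both higher in MS, in a fit that called 245 of all 10204 genes higher. MS fetuses lay between -6.70 and -3.28. LW fetuses lay between -3.51 and -0.53, with 3 of them at -2.80 or below, inside or near the MS range. With MS fetus 632, at -6.70, left out, the GATA4 difference was -1.88 (adjusted p = 0.0125). GATA4 was called at 2 of 3 probes, with differences from -2.47 to -0.90 over the 3. A pair of these probes, which includes the brightest, is identical in sequence.

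Of 24 tested cell cycle genes, 3 were called lower and 1 higher in MS, against 2.24% and 1.84% of all genes. In this list 19 differed in the direction of LW, while 5844 of all 10204 genes differed in the direction of MS. The median was -0.38 and was between -0.45 and -0.21 over the settings tried. After centring each array on its median none of the lower genes was called and the median was -0.26. With array weights 8 were called lower and 0 higher, in a fit that called 593 of all 10204 genes lower. AURKA, a mitotic kinase, was lower at all 3 probes (-0.85, SE 0.17 at the brightest), at -1.40 to 0.04 in MS and -0.41 to 0.90 in LW. MCM3, a subunit of the replicative helicase, was lower (-0.67, SE 0.17), and so was MYBL2, a transcription factor of dividing cells (-0.62, SE 0.16). MCM3 lost its call without any one of 7 fetuses (LW 557, 559, 572 and 575, MS 401, 407 and 409), with adjusted p up to 0.0232, and MYBL2, called at 1 of 6 probes, without any one of 9 (the same 7, and MS 632 and 871), and with slide as a block (adjusted p = 0.0151). CCNE1, the cyclin that opens S phase, was higher in MS (0.82, SE 0.22) and was well above background in 5 of 7 MS and 3 of 9 LW fetuses. It lost its call without any one of 6 fetuses and with slide as a block (adjusted p = 0.0328). At day 90 none of these genes was called and the median of the list was 0.10. The 7 crypt stem cell markers tested had a median of -0.11, or -0.26 without MS fetus 632, -0.50 with array weights and 0.01 after centring on the median.

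Of 28 tested chaperone genes 2 were higher and 2 lower in MS, against 1.84% and 2.24% of all genes, and neither lower call was kept without MS fetus 632. HSPA5, the chaperone of the endoplasmic reticulum, was lower at all 3 probes (-0.93, SE 0.25 at the brightest), and HSPH1, a co-chaperone of HSP70, was lower at all 3 probes (-0.65, SE 0.15). With MS fetus 632 left out they stood at -0.53 and -0.50 and were not called (adjusted p = 0.0497 and 0.0181). HSPA5 lost its call without any one of 8 fetuses in all, and with slide as a block (adjusted p = 0.014). HSPA4 was higher at 1 of 2 probes (0.98, SE 0.24), the other differing by 0.11, but not called without MS fetus 623 (adjusted p = 0.0114). CIRBP, an RNA-binding protein induced by cold, was higher at 1.15 to 2.17 in MS against 0.22 to 1.61 in LW (0.74, SE 0.19). At day 90 the CIRBP difference was -0.69, and its change between the ages, 1.44, had an adjusted p of 0.0134. CIRBP lost its call without any one of 9 fetuses (adjusted p up to 0.027).

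Of the remaining named enzymes and kinases, MAPK3, the kinase ERK1, was higher in MS without overlap, at 3.35 to 4.40 against 2.25 to 3.10 (1.01, SE 0.17). SLC16A1, a lactate transporter, was higher at 1 of 8 probes (0.55, SE 0.14), with the others from -0.10 to 0.57, but not without any one of 5 fetuses (LW 559 and 572, MS 401, 407 and 409). IVD, which breaks down leucine, was lower at all 3 probes (-0.85, SE 0.20), and PRODH, which breaks down proline, was lower at a dim probe (-2.24, SE 0.52). IVD lost its call without LW 559, MS 401 or MS 407, and PRODH without MS 401 (adjusted p = 0.0124). SDCBP2, a scaffold protein that binds membrane phospholipids, was higher (1.68, SE 0.30), but not called with the 16 fetuses alone (adjusted p = 0.0146).

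The list of genes that the study itself singled out was chosen on these samples and gives no independent evidence of a direction. Of its 18 tested members, G6PC, SDCBP2 and CD163 were higher in MS at the brightest probe and CCL2 was lower. PPARGC1A, a coactivator of oxidative and gluconeogenic genes, ranged from 1.78 to 2.55 in MS and from 1.61 to 2.46 in LW (0.17, SE 0.19). It was called at 1 of 5 probes (0.65, SE 0.16). NR3C1, the glucocorticoid receptor, differed by -0.24 (SE 0.13, or -0.12 without MS fetus 632) at the brightest probe and by -2.08 (SE 0.25) at the 1 of 6 that was called. MAP2K1, the kinase above ERK, was called at 2 of 6 probes, by 1.29 and 0.72, and differed by 0.27 at the brightest. LDHA, IGF1R, MTOR, TGFB2, GPT and FHL3 differed by 0.08, 0.18, -0.15, 0.32, 0.41 and -0.16, and none was called. Without MS fetus 632 LDHA differed by 0.31, IGF1R by -0.06 and TGFB2 by 0.17, again with no call. SRPX2, a secreted protein, differed by -0.49 at its brightest probe and by 0.46 at the other, and neither was called. DIO1, which activates thyroid hormone, differed by 0.25 (SE 0.66), with MS fetus 632 at -6.42 and an MS median of 1.28. Without that fetus DIO1 differed by 1.34 (adjusted p = 0.0614).

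The breed differences of day 110 were compared with those of day 90, measured in other fetuses on the same platform. At day 90, 1449 probes were called (3.58%). Of the day 110 calls, 95.2% had the same sign at day 90, against 67.6% of the probes that were not called. Of the day 110 calls 40.1% were also called at day 90, and of the day 90 calls 56.0% were also called at day 110. Among the 811 probes called at both ages, 810 had the same sign. The share also called at day 90 was 30.4% for differences of 0.5 to 1, 42.1% for 1 to 2, 57.2% for 2 to 3 and 75.3% above that. CCL2, C3, APOD, G6PC and AURKA were called at day 110 and not at day 90. The change between the ages did not pass the interaction test for any of them at the brightest probe.

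**Figure D3:**
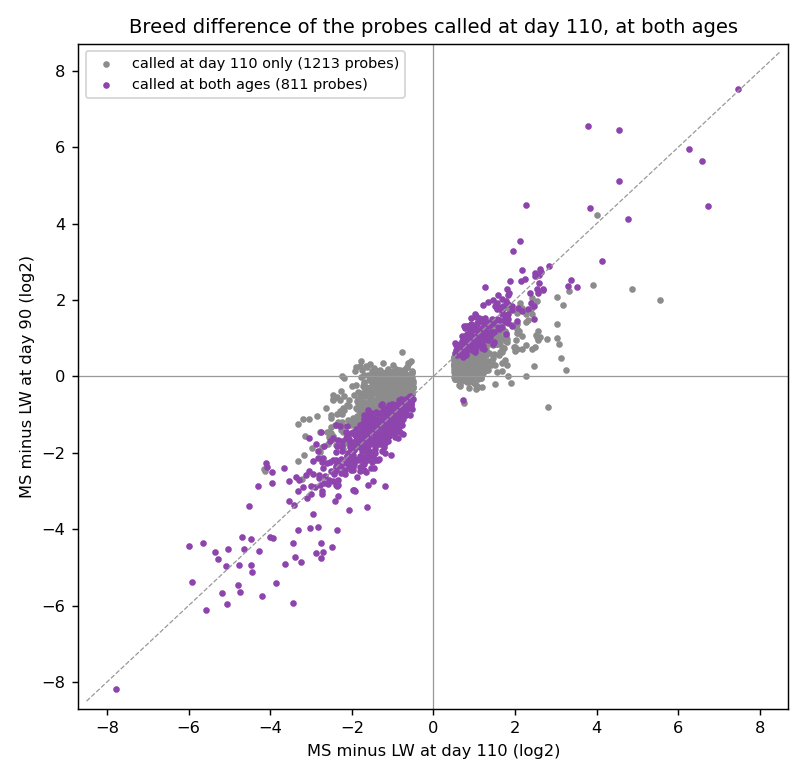
MS minus LW difference (log2) at day 90 against that at day 110 for the 2024 probes called at day 110, where purple points are the 811 probes also called at day 90 and the dashed line marks equal differences. Most points with differences above 3 in size are purple and scatter around the line, and grey points gather at small day 90 differences.

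The interaction test itself called 7 probes (0.0173%), while 2680 had an unadjusted p under 0.05. Of the 7, 4 were CYP11A1 probes. CYP11A1 makes pregnenolone, the first step of steroid synthesis. At these 4 probes none of the 16 fetuses of day 110 was well above background and their values have no order. No day 110 difference is therefore given, and the sizes of the change listed further below are fitted values and not measured ones. At the probe with the smallest adjusted p, CYP11A1 lay between -8.23 and -6.62 in day 110 MS fetuses and between -7.81 and -4.82 in day 110 LW fetuses. At day 90 MS lay between -2.66 and 0.93 and LW between -7.48 and -5.44, without overlap. C1ORF63 was lower in MS at day 110 (-1.23, SE 0.20) and not at day 90 (0.36), and the GBP1 probe of the 7, 1 of 4 for this interferon-induced GTPase, was higher in MS at day 90 (1.38) and not at day 110 (-0.33). The brightest GBP1 probe differed by 1.0 and -0.23, and its change was not called (adjusted p = 0.0915). One MAP2K1 probe was called in both directions, at 0.72 on day 110 and -0.63 on day 90.

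Probes of one gene were set against each other. Among 4849 genes with several tested probes, 4301 had probes at 2 or more separate targets, meaning probes that share no run of 20 bases. Probes named only through the study's tables were left out here. A called probe was found in 340 of the 4301. In 255 of these a single target was called, and in 164 of the 255 all probes had the same sign. In 85 genes (25%) at least 2 targets were called, and 38 gene names were called at every target, 10 higher and 28 lower in MS, with both names of 1 gene among the latter. Pairs of probes with identical sequence had the same sign in 92.3% of 901 pairs and were both called in 64.3% of the pairs with a call. Overlapping probes did so in 91.1% and 49.7%, and separate probes in 75.5% and 20.2%. Where a called probe differed by 2 or more, the other probes of its gene had a median of 1.76 in the same direction, against 0.86 for differences of 1 to 2 and 0.40 for smaller ones.

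The genes called at every target are described next. The 10 higher in MS were ABCC9, ABHD2, AGTR1, APOD, CD46, DEGS1, HNRNPA1, LGALS3, STARD10 and WFDC2. HNRNPA1, an RNA-binding protein of splicing, was higher at all 7 probes (4 targets), by 1.12 to 1.29, and by 1.15 at day 90. LGALS3, the lectin galectin-3 of epithelial cells and macrophages, was higher at all 8 probes (3 targets), by 1.16 to 1.22, and differed by 0.19 at day 90. AGTR1, the angiotensin II receptor, was higher at all 3 probes, by 0.87 to 1.09, and ABCC9, a subunit of muscle potassium channels, at both, by 1.43 and 1.83. STARD10, a phospholipid carrier, did not overlap between the breeds, at 0.88 to 2.46 in MS and -0.26 to 0.38 in LW. DEGS1, which makes ceramide, was called at 2 probes although its brightest, at 0.42, was not, and the brightest WFDC2 probe (1.53, adjusted p = 0.0114) was not called either.

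The 28 lower in MS included AURKA, C3, CCL2, CYP2C34, CYP2C49, HSPA5, HSPH1, IVD and MMRN2, described above. MCM8, a helicase of DNA repair, was lower at all 5 of its separate targets, by -0.67 to -1.16, and ZWILCH, a kinetochore protein, at both, by -0.55 and -0.68. CRISPLD1, a secreted protein, was lower at all 4 probes. At its brightest probe the breeds did not overlap, at -2.99 to -1.18 in MS and -0.95 to 0.24 in LW. MSRB2, which repairs oxidised methionine in mitochondria, did not overlap, at -1.74 to -0.07 against 0.15 to 0.38, and differed by -1.70 at day 90. AKR1B1, the aldose reductase that opens the route from glucose to fructose, was lower at all 3 probes, by -0.87 to -1.01, and CYP2D25, a vitamin D hydroxylase, at all 3, by -1.22 to -1.52. TRMT10B and RG9MTD3, a current and a former name of the same transfer RNA methyltransferase, were each called lower at both of their probes, without overlap at the brightest. ELTD1, an endothelial receptor, was lower without overlap (-1.12), as was FAM199X (-1.02). Among 10 tested endothelium markers KDR was called, lower in MS (-1.06, adjusted p = 0.0052), against 2.24% of all genes. In this list 1 differed in the direction of MS, as did 5844 of all 10204 genes, and the median was -0.14, while after centring on the median none was called. The part of endothelial content in the ELTD1 and MMRN2 differences was not tested. BDNF, CASQ2, FITM1, NME4, NRAP, PCDH15, SPOCK3, TYW3 and VPS72 completed the list, FITM1 with a brightest probe that was not called (0.17).

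**Figure D4:**
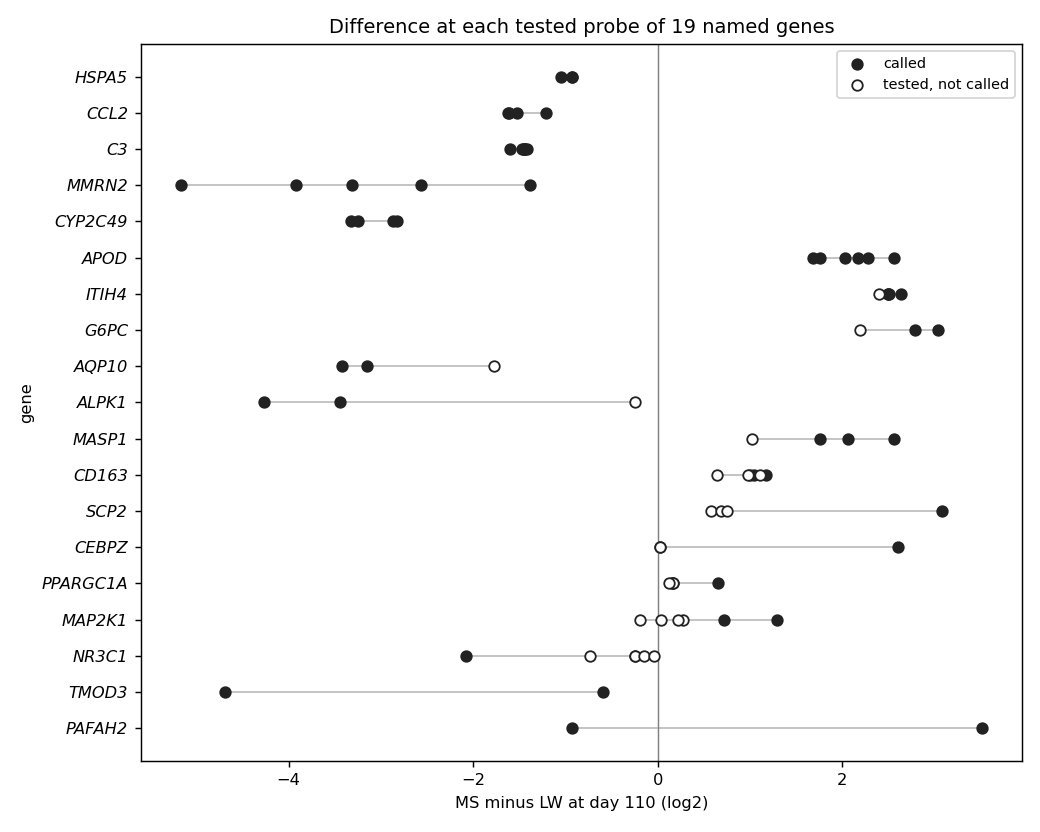
MS minus LW difference at day 110 (log2) of every tested probe of 19 named genes, filled where called. The probes of HSPA5, CCL2, C3, CYP2C49, APOD and ITIH4 lie close together on one side of 0, those of SCP2, CEBPZ, NR3C1 and TMOD3 are spread with 1 far out, and those of PAFAH2 lie on both sides.

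Among the 4301 genes with separate targets, and without the probes named only through the study's tables, those called in both directions were COX1, CYTB, FGL2, KLF9 and ND1. FGL2, a fibrinogen-like protein of the gut wall, was lower at 3 probes, by -0.86 to -1.19, and higher at another, by 1.02. KLF9, a transcription factor induced by glucocorticoids, was higher at 1 of 12 probes (1.24) and lower at 1 (-1.22). COX1, CYTB and ND1 are encoded by the mitochondrial genome, which is inherited from the dam. The 13 protein-coding mitochondrial genes had 127 tested probes, of which 32 (25.2%) were called, 19 higher and 13 lower in MS, against 5.0% of all tested probes. These genes were looked at after their values were seen, and their probes were not independent of each other. ND4 had 6 of 11 probes higher, CYTB 8 of 21 higher and 2 lower, and ND2 4 of 12 lower, while none of the 9 ATP6 and none of the 14 COX3 probes was called. All 32 had the same sign at day 90, when 20 were called.

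At the called mitochondrial probes the crossbreds followed the breed of the sow. The LWMS mean was nearer the MS mean at 32 of 32 probes and the MSLW mean nearer the LW mean at 32 of 32. On a scale where the LW mean is 0 and the MS mean is 1, the median position over these probes was 0.92 for LWMS (quartiles 0.89 and 0.98) and -0.03 for MSLW (-0.11 and 0.05). Over the other 1992 called probes the medians were 0.62 (0.42 and 0.82) and 0.44 (0.27 and 0.64). The probes that show both directions are printed for 4 genes, named by their direction in MS.
ND1, higher in MS: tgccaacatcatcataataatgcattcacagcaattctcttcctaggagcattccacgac
CYTB, higher in MS: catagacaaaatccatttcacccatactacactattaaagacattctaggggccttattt
COX1, higher in MS: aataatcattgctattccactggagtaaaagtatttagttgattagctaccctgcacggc
COX1, lower in MS: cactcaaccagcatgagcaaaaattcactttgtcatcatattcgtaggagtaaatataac
ND2, lower in MS: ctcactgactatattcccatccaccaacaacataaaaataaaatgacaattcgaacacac
The ND1 probe ranged from 6.63 to 7.09 in MS, 6.61 to 7.24 in LWMS, 5.36 to 6.36 in LW and 5.49 to 6.17 in MSLW (MS minus LW 1.04, SE 0.14). The fetuses of Meishan sows lay above all fetuses of Large White sows. The CYTB probe ranged from 6.97 to 7.59 in MS and from 5.80 to 6.91 in LW (0.81, SE 0.14). The higher COX1 probe differed by 0.50 (SE 0.13). The lower COX1 probe ranged from 2.89 to 5.83 in MS and from 6.14 to 7.17 in LW (-2.02, SE 0.44), and the ND2 probe from 2.30 to 4.96 in MS and from 5.71 to 6.52 in LW (-2.17, SE 0.37).

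The lower COX1 probe and the ND2 probe shown above also varied among the fetuses of Meishan sows. At the lower COX1 probe MS fetuses 623, 627 and 409 stood at 2.89, 3.32 and 4.21, and the other 4 MS fetuses between 5.57 and 5.83. LWMS fetuses 402, 872, 874 and 633 stood at 3.02, 3.26, 3.87 and 4.21, and the other 5 between 5.54 and 5.94. The same fetuses were the lowest of their groups at the ND2 probe, with 2.30, 2.83 and 3.55 in MS. At the higher ND1 probe these 7 fetuses ranged from 6.61 to 7.24 and the other fetuses of Meishan sows from 6.76 to 7.18.

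**Figure D5:**
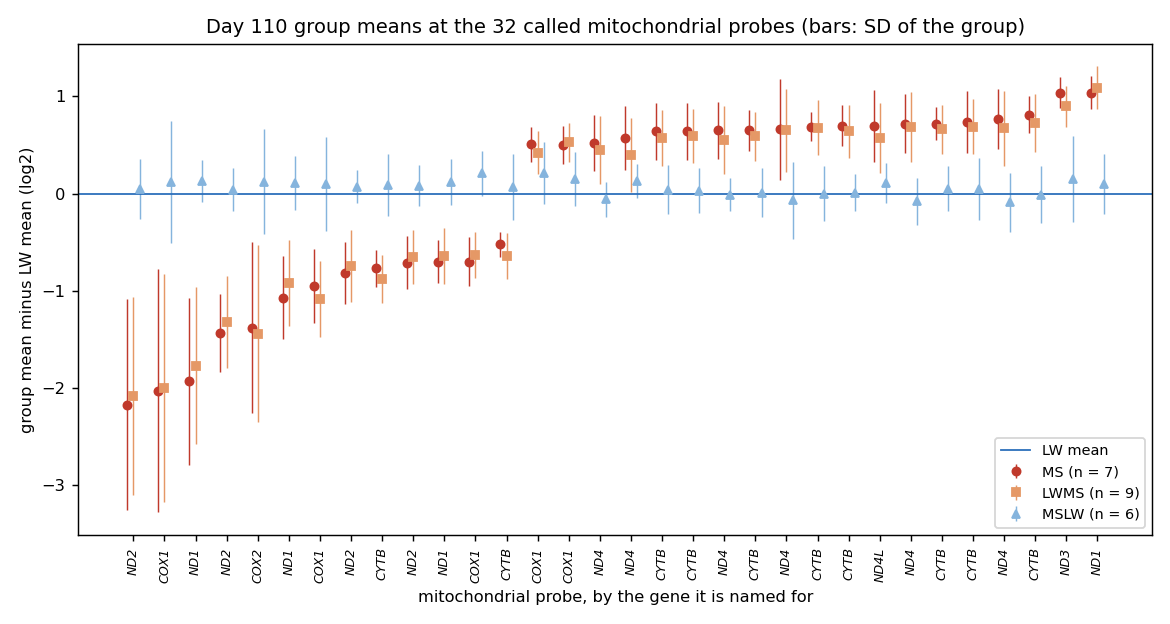
Mean of the MS, LWMS and MSLW fetuses of day 110 minus the LW mean (log2, bars are the SD of each group) at the 32 called mitochondrial probes, ordered by the MS difference. LWMS points lie near the MS points in both directions and MSLW points lie around 0, the LW mean.

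Probes that cover nearly the same stretch were compared base by base, over pairs that overlap by at least 35 bases. Where the overlap was identical, the breed differences were more than 1 apart in 0.307% of 3584 pairs. Where it held 1 different base this share was 1.53% of 522 pairs, and with 4 different bases 6.31% of 111. The pairs below were chosen for their gap after their values were seen, and differ by 1 base, shown in capitals, within the stretch they share. Outside that stretch each probe covers other bases.
ND1 first probe: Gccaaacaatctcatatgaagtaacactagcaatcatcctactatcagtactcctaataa
ND1 second probe: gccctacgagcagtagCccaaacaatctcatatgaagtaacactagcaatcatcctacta
COX2 first probe: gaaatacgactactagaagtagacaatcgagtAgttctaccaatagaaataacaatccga
COX2 second probe: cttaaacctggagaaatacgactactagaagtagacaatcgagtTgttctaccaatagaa
The pairs share a stretch of 44 bases for ND1 and 48 for COX2 and run past it at opposite ends. Within the shared stretch the ND1 pair differs by G1C and the COX2 pair by A33T, with positions counted from 1 at the 5′ end of the first probe. The first ND1 probe was lower in MS (-1.94, SE 0.29), at 2.48 to 4.40 against 5.03 to 6.26 in LW. The second, at 5.30 to 5.90 against 5.45 to 6.61, was not called (-0.33, SE 0.14). The first COX2 probe was lower (-1.38, SE 0.33) and the second was not called (0.22, SE 0.14).

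Nuclear genes held such pairs too, shown here by the 30 bases around the difference.
CIB2 first probe: aaaaaatggagaggaGaagacttgaaagag
CIB2 second probe: aaaaaatggagaggaCaagacttgaaagag
PIK3R5 first probe: tcGtcctaggacccCaaatggaatttaacg
PIK3R5 second probe: tcAtcctaggacccAaaatggaatttaacg
YARS first probe: atgaattcaaataaaacgtctggacaGgga
YARS second probe: atgaattcaaataaaacgtctggacaAgga
Within the bases they share, the CIB2 probes differ by G27C, the YARS probes by G42A and the PIK3R5 probes by G3A and C15A, counted from the 5′ end of the whole first probe. YARS, a transfer RNA synthetase, was lower in MS at the first probe (-2.81, SE 0.65), with MS between -7.56 and 0.39 (median -0.35) and LW between -0.30 and 1.44 (median 0.82), and differed by 0.02 (SE 0.10) at the second. CIB2, a calcium-binding protein, differed by 0.15 (SE 0.50) at the first and was lower at the second (-1.51, SE 0.36). PIK3R5, a regulatory subunit of a lipid kinase, was lower at the first (-1.64, SE 0.42) and higher at the second (0.85, SE 0.22). The genome sequences of these fetuses were not analysed here, so the alleles behind the probes are unknown.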

How the data were processed

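The authors hybridised Cy3-labelled cRNA of each fetus to a 1-colour Agilent porcine array and deposited scanner output (Agilent Feature Extraction 10.10.1.1) with spot intensity, background-corrected within the array, and a table of log2 values that their methods call normalised after quality control, without naming the method. In that deposited log2 table all 63 columns followed their own array (r at least 0.989) and shared a median of 8.61. The genome build is not given in the sources used here.

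Control spots (1319 of 61625) and outlier spots were left out, spots of a probe averaged, and log2 intensity minus the 75th percentile of each array was used. Probes were tested where 75% or more of the arrays in any of the 8 groups detected them above background, with limma 3.58.1 (R 4.3.3) in a fit of 8 group means, checked on simulated data. The simulation drew independent noise of equal spread in all groups, so it does not cover litters, outlying fetuses or unequal spread. The number of arrays limits the precision. Names came from RefSeq symbols, accessions and the file, and for 1630 probes from the study's tables, which were left out of list and probe agreement counts. They stayed among the probes given for named genes, such as MTFP1, TMOD3, BTD, PAFAH2, ALPK1, RARB, APOD, MASP1, PPARGC1A and NR3C1. The study selected these probes on the same fetuses, so their agreement with other probes of a gene is not independent. Named genes were the 12 with the largest called difference in each direction (at least 50% of arrays detected in both breeds and of probes agreeing in sign), up to 5 per direction detected in 1 breed only, up to 3 per gene list and direction, the genes the study singled out and those of the interaction. The members and lists were chosen with earlier results of these data known. Alternatives covered background, normalisation, filters, slide, array weights, samples, thresholds and single fetuses.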

Additional observations from a re-analysis of the deposited data

Results flagged for a closer look

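In 19 of 136 comparisons of a named gene within a breed at day 110, the highest or lowest fetus stood apart from the rest by more than Dixon's 95% limit. Chance flags about 1 in 20. In 15 of the 19 that fetus was MS 632. Its values were 0.74 for PAFAH2, -0.29 for ITIH4, 2.10 for SALL3, -6.62 for CYP2C42, -4.02 for SLC1A1, 1.38 for C3, -1.95 for HSPA4, 0.02 for HSPH1, 1.65 for HSPA5, 6.4 for CA4, -6.70 for GATA4, 1.34 for IVD, 4.00 for LDHA, -0.62 for KHK and -6.42 for DIO1. SALL3, CA4 and IVD were high in this fetus and the others low. Its enterocyte marker mean was 1.02, and the part of this in the values was not tested. In LW, fetus 469 stood apart for TMOD3 (-0.99), fetus 670 for NPM2 (-4.30) and fetus 572 for SLA-8 (2.29). LW fetus 469 was also flagged for AADAT (-4.65). No LW fetus was well above background at AADAT, so this flag gives no order among them.

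The breed difference changed between day 90 and day 110 at 7 probes. The change was -1.71 at a GBP1 probe, 1.34 at a MAP2K1 probe and -1.60 at the C1ORF63 probe. At 4 CYP11A1 probes the fitted change was -7.53, -6.67, -7.41 and -7.44. These 4 probes were not well above background in any day 110 fetus, so their sizes are fitted values and not measured ones.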

How the results depend on the processing

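No called probe changed sign under any alternative fitted probe by probe that measured it, and each of these covered the 2024 calls except the deposited values (1979 measured) and the stricter filter (1912). This gives no separate support, since all alternatives reuse these arrays on probes chosen for their difference. With the 16 fetuses alone, the purebreds alone or another filter, the differences are the same by construction. Counts of calls moved over 1.5 times as follows. Median centring gave 672 probes lower in MS. The 16 purebred fetuses alone gave 965 calls, 285 higher and 680 lower, and purebreds of both ages 466 higher and 4 interaction probes. An adjusted p of at most 0.05 gave 3549 calls (1385 higher, 2164 lower), 2432 at day 90 and 16 for the interaction. Array weights gave 5873 calls (2924 higher, 2949 lower), 2857 at day 90 and 46 for the interaction, and kept 90.5% of the calls. The deposited values gave 12 interaction probes. Without MS fetus 632 and LW fetus 469, a choice made after seeing the data, 2343 probes were called, 1645 of them among the 2024. Leaving out 1 fetus gave 1640 to 2192 calls, 606 to 849 higher, 1028 to 1343 lower, 1405 to 1675 at day 90 and 5 to 9 for the interaction. For the day 110 calls of both directions together, the lowest count (1640) came without MS fetus 401 and the highest (2192) without MS fetus 632.

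Of 50 named genes called at the brightest probe, 22 passed with the 16 fetuses alone and 38 after median centring. Those that did not pass after median centring were PAFAH2, TMOD3, SLC16A1, SQLE, SLA-8, C3, IVD, HSPH1, HSPA5, AURKA, MCM3 and MYBL2. With slide as a block 45 passed (not AQP10, CD163, CCNE1, MYBL2 and HSPA5). The mean of within-slide differences kept its sign for all 50, although CYP2C49, AQP10, SLC1A1, C3, AURKA, MCM3, MYBL2, CA4, SLC26A3, GATA4 and PRODH had the other sign in at least 1 slide. This mean leaves out MS fetuses 401 and 632 and LW fetuses 572, 670 and 854. Their slides held no day 110 purebred of the other breed. With the mean of a gene's probes PAFAH2 was reversed, at 1.29. The labels share no fetus number between groups, so fetuses could be compared within slides but not paired by number. Differences of dim probes are limited by signal over background.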
